A study of Brassica napus with 9 samples.

Results

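The genes described here were expressed in leaves of well-watered oilseed rape (*Brassica napus* L.) and close to absent in leaves of drought-treated plants. A gene was included when its FPKM (fragments per gene, corrected for gene length and library depth) was at least 5 in each of the 3 well-watered libraries and under 0.5 in each of the 3 drought libraries. Of the 101040 genes with a Bna identifier, 24464 met the first condition, and 71 met both. The rule left out 2 of them, so that 69 members remained, or 0.282% of the genes expressed at this level under sufficient water. None of the 3552 loci listed outside the Bna gene models met both conditions.

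All plants were of wild type genotype, cultivar Zhongshuang 11, and the third leaf was sampled. In the D + F group, plants under drought received 100 mg/L of fullerol, a water-soluble fullerene derivative with hydroxyl groups, on the leaves. The soil of the D group was dried to 30% of field capacity without fullerol, and the CK group was kept at 80% of field capacity. According to the study, distilled water was applied to the leaves of both of these groups instead. Each group had 3 libraries, which the study calls biological replicates. The totals that scale the FPKM values, solved from their digits, ran from 21939148 to 26042002 read pairs per library, at which 3 read pairs on 1 kilobase of coding sequence amount to 0.115 to 0.137 FPKM. In whole leaves, fewer cells of a type and less RNA per cell cannot be told apart.

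*B. napus* carries an A and a C subgenome, inherited from relatives of *B. rapa* and *B. oleracea*, and many of its genes are present as near-identical copies on both. Leaves under drought close their stomata and cut back growth and the assimilation of carbon and nitrogen, and the transcripts of many genes fall in abundance. The sources used here gave a pathway for 6 of the 69 members and a gene name for 1 of them, and a further 3 members are in the RefSeq table with the identifier itself as their symbol. The other members are given by identifier only, and the leaf label was not checked against marker genes for the same reason. Reads that match more than 1 copy of a gene cannot be assigned to 1 of them with certainty, which leaves the value of each copy uncertain.

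The words "switched off" describe a threshold, since most members kept a few reads under drought. The 8 members without any read in the D libraries were BnaC04g33320D, BnaA03g17000D, BnaAnng00520D, BnaC09g33360D, BnaC09g17940D, BnaC06g36010D, BnaC09g17950D and BnaA10g10930D. A total of 34 members had at most 3 reads in each D library. The median over members of the mean level was 0.763 FPKM in D + F, 0.141 FPKM in D and 13.9 FPKM in CK. The highest mean of any member was 4.69 FPKM in D + F, 0.411 FPKM in D and 444 FPKM in CK, so that the ranges of the group means in D and CK were set far apart by the rule, and the D + F means lay below every CK mean of at least 6.85 FPKM. Summed over the 69 members, the level was 77.5, 47.8 and 77.5 FPKM in the D + F libraries, 11, 11.8 and 8.46 FPKM in the D libraries, and 1841, 2056 and 2149 FPKM in the CK libraries. Limma's test on log2(FPKM + 1) called all 69 members lower in D vs. CK at an adjusted p under 0.05, as it did 19.7% of the 50626 genes tested, which only restates how the members were chosen.

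**Figure D1:**
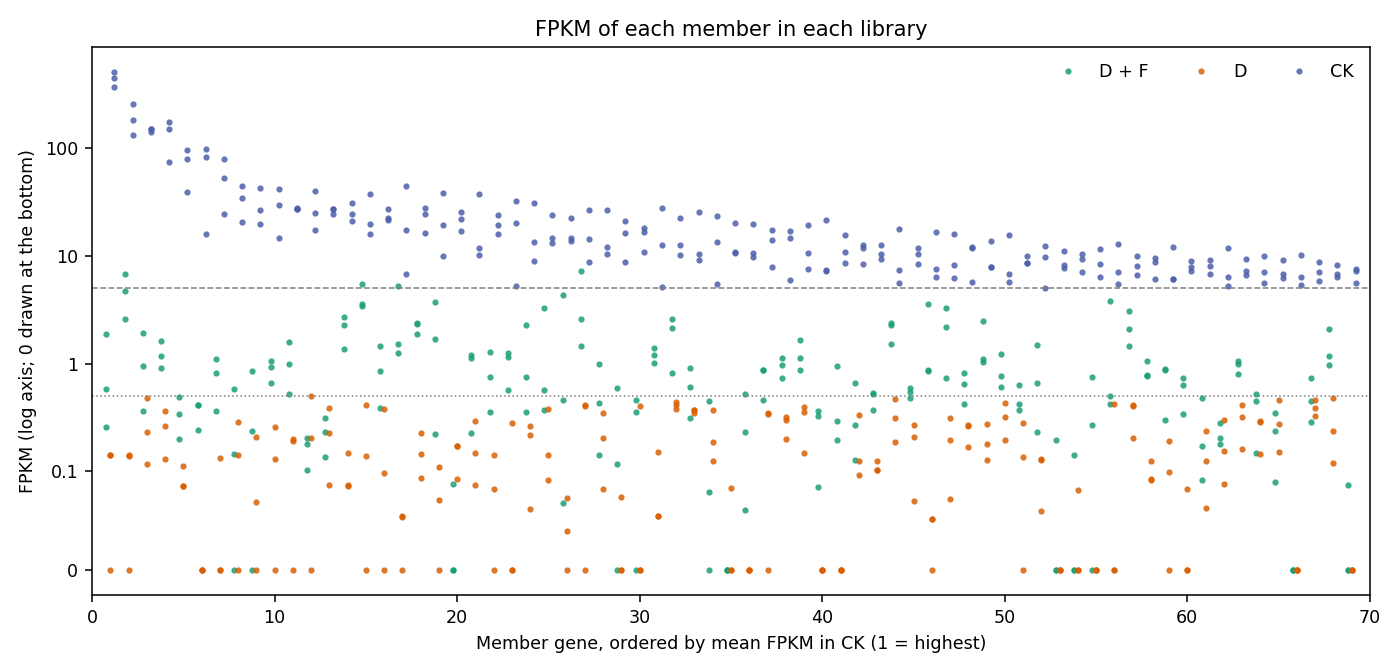
FPKM of the 69 members (log axis, with 0 drawn at the bottom) in the 9 libraries, with members ordered along the horizontal axis by their mean in CK; each point is 1 library, the dashed line marks 5 FPKM and the dotted line 0.5 FPKM. The CK points lie on or above the dashed line and the D points below the dotted line by choice, and the D + F points lie around and mostly below 1 FPKM, with 4 members reaching 5 FPKM in a D + F library.

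The values at the edges of the rule were close to each other. Just inside the CK threshold, BnaC09g48990D had a lowest CK value of 5.06 FPKM and BnaAnng10230D one of 5.21 FPKM. Just outside it, BnaA09g37600D had 4.81 FPKM and BnaA02g03610D 4.78 FPKM. Just inside the D threshold, BnaC03g33880D reached 0.496 FPKM in D and BnaA10g26870D 0.483 FPKM, and just outside it, BnaC07g03440D reached 0.523 FPKM and BnaA07g37580D 0.538 FPKM. The number of members moved with the CK libraries required, being 111 when CK 3 was not asked to reach 5 FPKM, 84 without CK 1 and 75 without CK 2.

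The most abundant members in CK were near the threshold of detection in both drought groups. BnaA09g49730D, with a coding length of only 300 bases, had 1.90, 0.256 and 0.582 FPKM in D + F, 0.141, 0 and 0.143 FPKM in D, and 368, 455 and 509 FPKM in CK. This gene had the highest CK level of all members, and its D + F mean was 0.205% of its CK mean. BnaA09g30450D had 0.362, 0.952 and 1.92 FPKM in D + F, 0.233, 0.479 and 0.118 FPKM in D, and 152, 141 and 152 FPKM in CK. BnaA04g29520D had 1.10, 0.362 and 0.824 FPKM in D + F, 0.133, 0 and 0 FPKM in D, and 52.7, 79.5 and 24.5 FPKM in CK. BnaC05g04720D had 0.585, 0 and 0.146 FPKM in D + F, 0.141, 0 and 0.286 FPKM in D, and 20.9, 34.7 and 44.7 FPKM in CK. The D + F and D libraries overlapped in BnaA09g30450D and BnaC05g04720D and did not overlap in BnaA04g29520D, and in each of them all drought libraries stayed far below the lowest CK library.

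BnaA04g00240D, the second most abundant member in CK, differed from these. It had 4.68, 2.61 and 6.78 FPKM in D + F, 0, 0.141 and 0.139 FPKM in D, and 134, 184 and 258 FPKM in CK. Its D + F libraries held 33, 21 and 48 reads, against 0, 1 and 1 in D. The D + F mean was the highest of the 69 members, and it was still only 2.44% of the CK mean.

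The CK libraries were spread widely for many members. The ratio of the highest to the lowest CK library had a median of 2.0 over the members, against 1.36 over the 24464 genes with at least 5 FPKM in every CK library, and it was over 2 in 50.7% of members and in 11.9% of those genes. These are descriptions without a test. CK 3 was the highest CK library for 33 members (47.8%), CK 1 for 21 (30.4%) and CK 2 for 15 (21.7%). Over the 24464 genes, the shares were 59.7% for CK 3, 26.2% for CK 1 and 14.2% for CK 2. The largest ratio of a member was 6.54, and every percent of CK below carries this spread. The coding length of the members had a median of 756 bases, against 987 bases over the genes at this CK level, and 30.4% of members but 19.1% of those genes were under 500 bases long. A short gene gives few reads per FPKM, so the thresholds rested on fewer reads in these.

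Whether the members were expressed again in D + F was asked next, and this used values that the rule had not seen. With 0.5 FPKM, the ceiling of the rule in D, as the limit, 23 members (33.3%) were detected in all 3 D + F libraries. Another 30 were detected in 1 or 2 of them and 16 in none. This limit stands for different numbers of reads, depending on coding length. BnaC06g28970D, of 153 bases, passed it in all 3 libraries with 2, 5 and 4 reads. BnaCnng38640D, of 1164 bases, passed it in none with 13, 6 and 9 reads. At a limit of 1 FPKM, 10 members were detected in all 3 libraries, and no member reached the 5 FPKM of the CK threshold in all 3. Single libraries gave 42 members at 0.5 FPKM or more in D + F 1, 32 in D + F 2 and 42 in D + F 3. D + F 2, which had the largest total of the 9 libraries, was the highest D + F library for 7 members, D + F 1 for 33 and D + F 3 for 27. Over the 24464 genes expressed at this level in CK, the shares were 17.5% for D + F 2, 27.6% for D + F 1 and 54.9% for D + F 3.

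The D + F level was a small fraction of CK for most members. The D + F mean as a percent of the CK mean had a median of 4.24% over the members, with quartiles of 1.53% and 8.77% and a highest value of 26.9%. Of the 69 members, 13 reached 10% of CK, 4 reached 20% and 14 stayed under 1%. The median was 4.92% in D + F 1, 3.57% in D + F 2 and 4.89% in D + F 3. The same measure for D, which the rule kept low, had a median of 0.849%. In D + F vs. CK, limma's test called all 69 members lower in D + F (adjusted p from 5.13e-05 to 0.0410), against 8.16% of all genes tested, and every D + F library lay below every CK library for all 69, against 19.2% of all genes. The high CK values were fixed by the rule in both counts. Without D + F 2 or CK 2 the test called 61 members each.

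**Figure D2:**
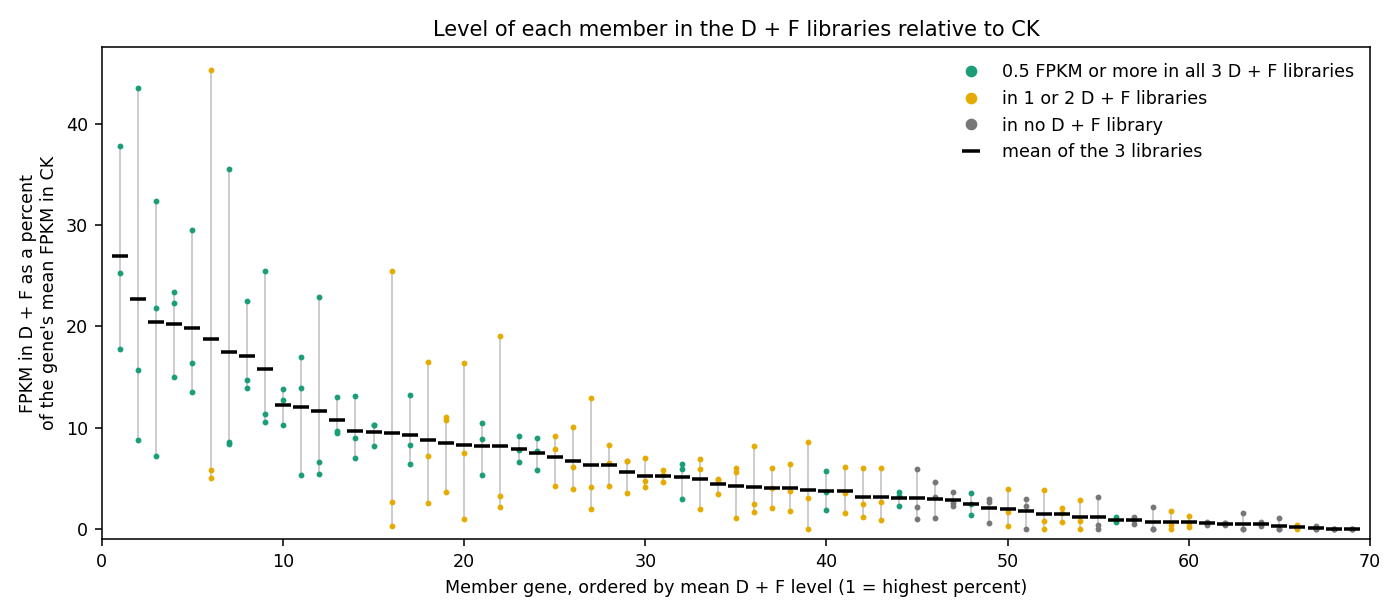
FPKM of the 69 members in D + F as a percent of the same gene's mean in CK (vertical axis, linear), with members ordered by the mean of the 3 D + F libraries; points are libraries, black bars are means, and colours give the number of D + F libraries with 0.5 FPKM or more. No mean passes 26.9% of CK, and in several members 1 library lies far above the other two.

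Because the rule required low values in all 3 D libraries, a higher value in other plants is partly fixed by the choice. The rule was therefore also applied with each D library left out, as an analysis added after the data had been seen. Of the 76 genes chosen without D 1, 9.21% had 0.5 FPKM or more in D 1, against 64.5%, 51.3% and 64.5% in D + F 1, 2 and 3. Of the 103 genes chosen without D 2, the share was 72.8%, 57.3% and 67.0% in D + F and 33.0% in D 2. Of the 77 genes chosen without D 3, it was 64.9%, 51.9% and 64.9% in D + F and 10.4% in D 3. The share was thus higher in each D + F library than in the left-out D library in all 9 comparisons, which share most of their genes, and the D 2 library stood closer to D + F than the other D libraries did.

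In D + F vs. D, 63 members had a positive change and 5 a negative one, where 69.7% of all genes tested had a positive change, and BnaC09g17950D had no read in either group. The median change was 0.61 on the log2(FPKM + 1) scale for the members, against 0.14 for all genes tested. Limma's test called 6 members higher (adjusted p from 0.0187 to 0.0359) and none lower, against 0.808% of all genes called higher, and 38 members were higher at an unadjusted p under 0.05, against 14.1% of all genes. Every D + F library lay above every D library in 43 members, against 19.8% of all genes tested. These shares share the D values with the rule. Leaving out 1 library removed most of the 6 calls. Omitting D + F 3, D + F 2, D 2 or D 1 left none, omitting D 3 left 2, and omitting D + F 1 left 4. Among all genes tested, those called higher numbered 409 in the full fit. They fell to 19, 0, 7 and 0 in the fits that left none of the 6, so this loss was not particular to the members. With D 3 omitted they numbered 84, and with D + F 1 omitted 446. Over these omissions, the fitted changes of the 6 stayed positive, from 0.97 in BnaAnng10230D to 2.61 in BnaA04g00240D. None of the 6 was called when all genes were tested without the filter on low values, where 15 of 76352 genes were called higher.

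**Figure D3:**
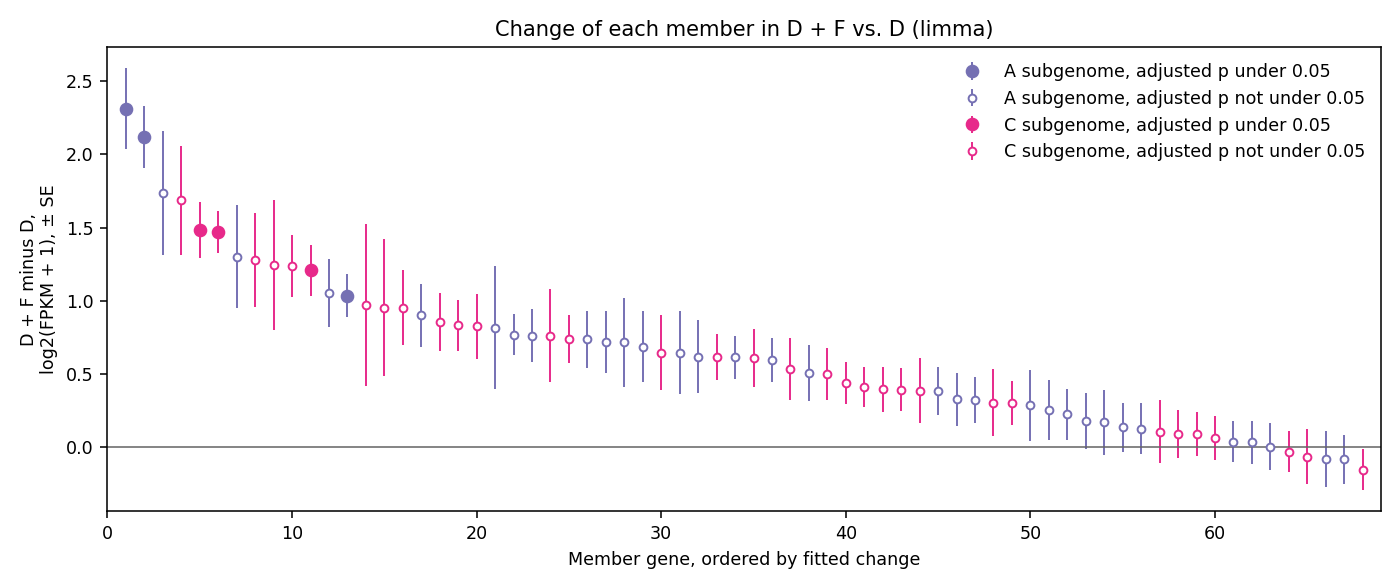
Fitted change in D + F vs. D of 68 members on the log2(FPKM + 1) scale (limma, with its SE), ordered from the highest to the lowest; BnaC09g17950D, without reads in both groups, is left out. Filled points mark the 6 members with an adjusted p under 0.05, of which 3 carry an A and 3 a C identifier.

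In the 6 members that rose in D + F vs. D, the libraries of both drought groups were far apart. BnaA09g40320D had 3.41, 3.60 and 5.51 FPKM in D + F, 0.410, 0 and 0.139 FPKM in D, and 15.9, 19.7 and 37.8 FPKM in CK. Its change in D + F vs. D was 2.12 ± 0.21 on the log2(FPKM + 1) scale (SE, adjusted p = 0.0187), and its D + F mean was 17.1% of CK. BnaA04g00240D, whose values are given above, changed by 2.31 ± 0.27 (SE, adjusted p = 0.0235). Both genes have a coding length of 309 bases. BnaAnng10230D had 1.41, 1.20 and 1.01 FPKM in D + F, 0.151, 0.0387 and 0.0382 FPKM in D, and 5.21, 12.6 and 28.2 FPKM in CK, with a change of 1.03 ± 0.15 (SE, adjusted p = 0.0344). BnaC05g02690D had 2.40, 1.54 and 2.28 FPKM in D + F, 0.312, 0.187 and 0.474 FPKM in D, and 7.37, 5.60 and 17.8 FPKM in CK, with a change of 1.21 ± 0.17 (SE, adjusted p = 0.0359). At 20.2% of CK, the last gene was 1 of the 4 members that reached 20%. The remaining 2 of the 6, BnaC03g56990D and BnaC09g08430D, belong to annotated pathways and are described with their copies.

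Other members with high D + F levels did not pass the test. BnaC03g41080D, which had the highest percent of CK (26.9%), had 1.46, 3.11 and 2.08 FPKM in D + F, 0.402, 0.414 and 0.204 FPKM in D, and 8.06, 6.63 and 9.98 FPKM in CK, with a change of 1.24 ± 0.21 (SE, adjusted p = 0.0507). Its D + F libraries lay above its D libraries and below its CK libraries without overlap. BnaA02g12210D had 7.25, 1.47 and 2.62 FPKM in D + F, 0.405, 0.417 and 0 FPKM in D, and 8.73, 14.3 and 27.0 FPKM in CK (adjusted p = 0.111). BnaCnng41950D had 1.52, 1.27 and 5.29 FPKM in D + F, 0.0376, 0.0387 and 0 FPKM in D, and 6.87, 17.6 and 44.9 FPKM in CK (adjusted p = 0.0894). In both genes 1 D + F library stood well above the other two, D + F 1 in BnaA02g12210D and D + F 3 in BnaCnng41950D. The plot of D + F as a percent of CK shows further members of this kind, and BnaC06g32880D, singled out after its values were seen, had 4.36, 0.0503 and 0.457 FPKM in D + F, 0, 0.0569 and 0.0281 FPKM in D, and 14.7, 13.9 and 22.8 FPKM in CK.

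The 16 members under 0.5 FPKM in every D + F library had a median D + F level of 0.661% of CK and at most 47 reads over the 3 D + F libraries together. Their median CK level, 13 FPKM, was close to the 15.2 FPKM of the 23 members detected again, but their coding length was shorter, with medians of 619.5 and 1092 bases. BnaC04g33320D had 0.414, 0.242 and 0.412 FPKM in D + F, 0 FPKM in each D library, and 98.4, 83.3 and 16.1 FPKM in CK. With 3 reads per library taken as the floor, its level in D was at least 163-fold below its CK mean. Its CK libraries differed 6.13-fold, so the bound is smaller against the lowest of them. BnaC03g29580D had 0, 0.0766 and 0 FPKM in D + F, 0.0843, 0.173 and 0.171 FPKM in D, and 17.0, 25.5 and 22 FPKM in CK. BnaA07g30160D had 0.313, 0.137 and 0.233 FPKM in D + F, 0.0753, 0.387 and 0.229 FPKM in D, and 27.2, 27.1 and 24.7 FPKM in CK. BnaC03g33880D had 0.103, 0.180 and 0.205 FPKM in D + F, 0.496, 0.204 and 0 FPKM in D, and 17.5, 39.9 and 25.0 FPKM in CK. The D + F libraries lay below the D libraries in BnaC03g29580D and overlapped them in BnaA07g30160D and BnaC03g33880D. In BnaC03g29580D this order rested on 0, 1 and 0 reads in D + F, against 1, 2 and 2 in D. None of these 3 genes passed the test in D + F vs. D (adjusted p = 0.589, 0.997 and 0.874). Their D + F means were 0.119%, 0.864% and 0.592% of CK. Among all members, BnaC09g17950D and BnaC04g56560D had no read in any D + F library.

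Members were divided evenly between the subgenomes, with 34 on A (49.3%) and 35 on C (50.7%), against 46.3% and 53.5% of the 24464 genes expressed at this level in CK. Of the A members, 11 were detected again in all D + F libraries, 15 in some and 8 in none, and of the C members 12, 15 and 8. The median D + F level was 3.89% of CK for A and 5.28% of CK for C, and the order of both depended on the library, as A had 5.27%, 3.55% and 3.2% in D + F 1, 2 and 3 and C had 4.92%, 3.65% and 5.78%. Each subgenome held 3 of the 6 members called higher in D + F vs. D. By identifier, 10 members (14.5%) lay on chromosome A09, which holds 6.23% of the genes expressed at this level, and 5 of these 10 were detected again. No member lay on A01, A06, A08 or C08, and 5 members of each subgenome were unplaced.

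Copies of a member were taken from the study's pathway lists, where several *B. napus* genes are assigned to the same *B. rapa* gene. The study put genes on these lists after finding them changed in these same libraries, so an unchanged copy could not appear. For the 3 members with a single listed copy on the other subgenome, that copy was also lower in D vs. CK, which this choice favoured. It met the rule in no case. Of the glycerolipid metabolism pair, a pathway that builds and breaks down storage and membrane lipids, the member BnaC09g08430D had 2.29, 1.38 and 2.69 FPKM in D + F, 0.0724, 0.0744 and 0.147 FPKM in D, and 24.8, 21.3 and 31.1 FPKM in CK. Its A copy BnaA09g08200D had 3.64, 4.15 and 5.12 FPKM in D + F, 0.905, 0.372 and 0.918 FPKM in D, and 32.3, 28.7 and 34.6 FPKM in CK. Both have a coding length of 1167 bases, and only the D level kept the A copy out. Both rose in D + F vs. D, by 1.48 ± 0.19 in the member (SE, adjusted p = 0.0288) and 1.62 ± 0.19 in the A copy (SE, adjusted p = 0.0235), to 8.25% and 13.5% of CK. Neither call was left when D 1 was omitted, where no gene of all tested was called higher.

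A pair in nitrogen metabolism, the pathway that reduces nitrate to ammonium and binds it into glutamine and glutamate, differed in level. The member BnaC03g56990D had 1.87, 2.36 and 2.36 FPKM in D + F, 0.226, 0.145 and 0.0859 FPKM in D, and 16.3, 28.2 and 24.4 FPKM in CK. It rose by 1.47 ± 0.14 in D + F vs. D (SE, adjusted p = 0.0187) and reached 9.59% of CK, a call that was likewise lost without D 1. Its A copy BnaA08g24500D had 0.263, 0.154 and 0.204 FPKM in D + F, 0.0282, 0.0579 and 0.0571 FPKM in D, and 2.88, 6.27 and 4.92 FPKM in CK, and it did not pass the test in D + F vs. D (adjusted p = 0.477). The A copy was kept out by its CK level, and its D + F mean was 4.41% of CK.

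*GSH3*, which the study describes as a probable glutamate dehydrogenase, an enzyme that links glutamate with ammonium and 2-oxoglutarate, was the only member with a symbol in the study. This gene, BnaC01g40390D, had 0.638, 0.342 and 0.742 FPKM in D + F, 0.0683, 0 and 0 FPKM in D, and 7.95, 7.27 and 8.92 FPKM in CK. The D + F libraries held 18, 11 and 21 reads, against 2, 0 and 0 in D. The change of 0.61 ± 0.16 did not pass limma's test (SE, adjusted p = 0.128). The study, which tested genes with DESeq, reported *GSH3* as higher with fullerol than without it under drought. Its A copy BnaA01g33880D, of the same coding length of 1236 bases, had 0.248, 0.124 and 0.141 FPKM in D + F, 0 FPKM in all D libraries, and 1.10, 1.88 and 2.62 FPKM in CK. In both copies every D + F library lay above every D library and below every CK library.

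BnaA07g20840D, a further member in nitrogen metabolism, was the only gene listed with its *B. rapa* gene. It had 0.658, 0.267 and 0.128 FPKM in D + F, 0.0927, 0.334 and 0.125 FPKM in D, and 12.5, 11.8 and 8.41 FPKM in CK, and its drought groups overlapped (adjusted p = 0.661 in D + F vs. D). With a coding length of 2733 bases, it rested on more reads than most members, 68 over the D + F libraries and 35 over the D libraries. The study's nitrogen metabolism list for D vs. CK held 26 genes, which the study chose on these same libraries. Of 25 tested, 17 fell and 6 rose in D vs. CK, and 7 rose and none fell in D + F vs. D. Over the 50626 genes tested, 19.7% were called lower in D vs. CK and 0.808% higher in D + F vs. D. Apart from the member BnaC03g56990D, the genes that rose in D + F vs. D were copies of *GLN1-1* and *GLN1-4*, cytosolic glutamine synthetases. The median change of the list in D vs. CK was -1.48, against -0.10 for all genes tested. The glycerolipid metabolism list for D + F vs. CK held 28 genes, likewise chosen on these libraries. Of 25 tested, 18 fell and 5 rose in that comparison, where 8.16% of all genes tested were called lower. The list's median change was -1.26, against 0.04 for all genes tested.

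Members BnaCnng78230D and BnaCnng38640D shared their *B. rapa* gene with each other and with 6 further genes, 3 on A and 3 on C. All are listed under linoleic acid metabolism, the route in which plant lipoxygenases oxidize polyunsaturated fatty acids, and both members also under alpha-linolenic acid metabolism, which leads to jasmonates. BnaCnng78230D had 1.18, 0.914 and 1.63 FPKM in D + F, 0.131, 0.360 and 0.266 FPKM in D, and 177, 152 and 74.5 FPKM in CK. BnaCnng38640D had 0.490, 0.198 and 0.338 FPKM in D + F, 0.0726, 0.112 and 0.0736 FPKM in D, and 96.4, 79.5 and 39.4 FPKM in CK. Both lay without overlap above D in D + F, at 0.922% and 0.476% of CK, and neither passed the test in D + F vs. D (adjusted p = 0.0782 and 0.350).

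The other 6 genes of this group had much lower CK levels, with means from 0.860 FPKM in BnaCnng70040D to 13 FPKM in BnaA07g38540D. BnaA07g38540D had 1.66, 1.03 and 1.17 FPKM in D + F, 0.346, 1.68 and 0.638 FPKM in D, and 19.6, 14.4 and 5.05 FPKM in CK. BnaC06g26190D had 0.0821, 0.0719 and 0.163 FPKM in D + F, 0.475, 0.0813 and 0.0963 FPKM in D, and 8.63, 7.14 and 3.98 FPKM in CK. Of the 8 genes, listed by the study as changed in these libraries, 7 fell in D vs. CK and 1, BnaCnng70040D, was not tested. CK 3 was the lowest CK library in all 8, including both members. The coding lengths of the 8 genes ran from 381 to 3294 bases, and reads shared between them could not be told apart. The linoleic acid metabolism list for D vs. CK held 18 genes chosen on these libraries, of which 14 of 16 tested fell and 1 rose in D vs. CK, and none was called in D + F vs. D. The share of the 50626 genes called was 19.7% for lower in D vs. CK and 0.808% for higher in D + F vs. D. The median change of this list in D vs. CK was -1.21, against -0.10 for all genes.

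**Figure D4:**
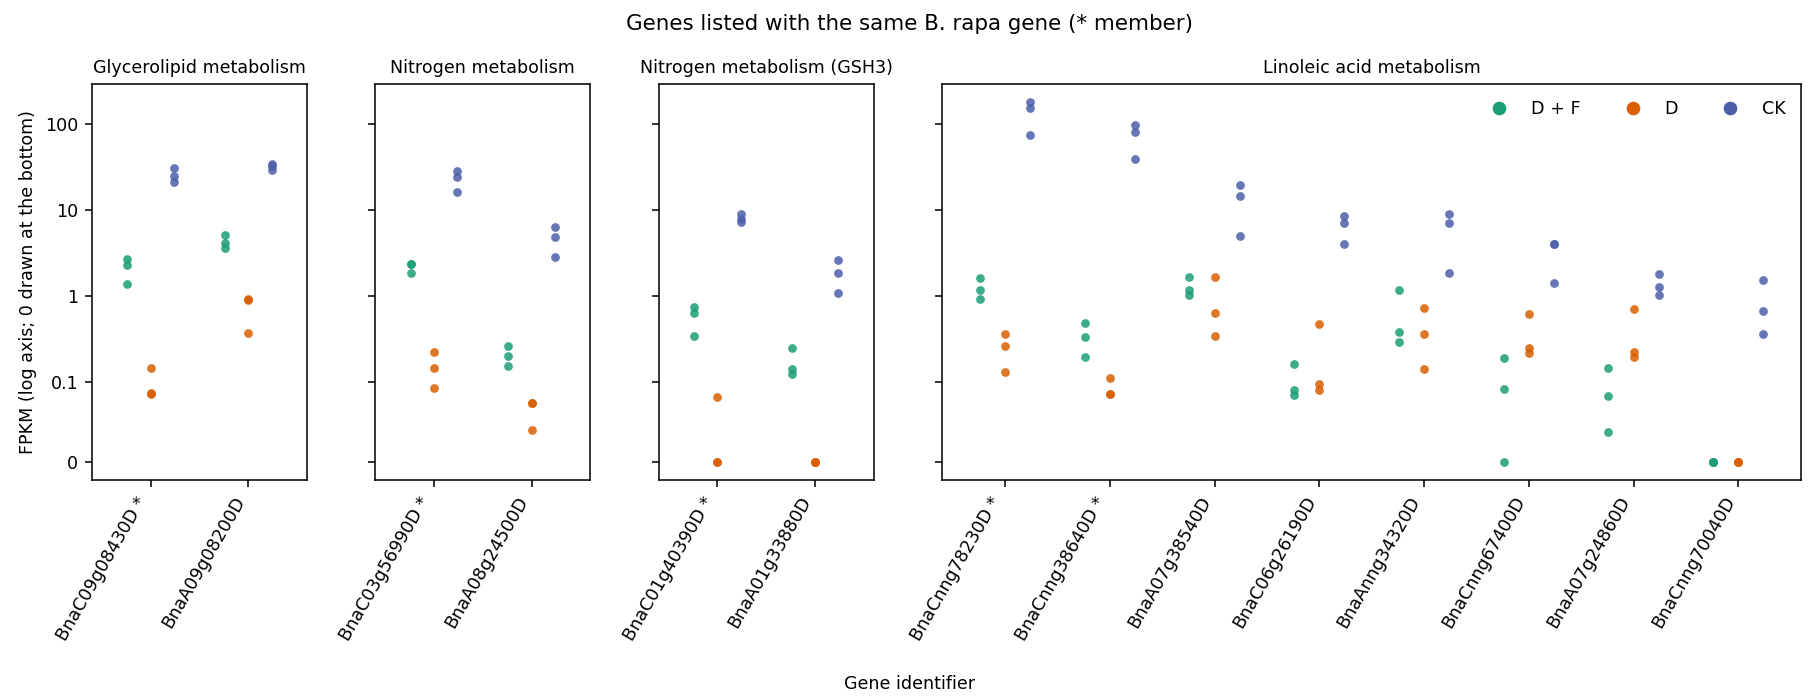
FPKM (log axis, with 0 drawn at the bottom) of the genes that the study's lists assign to the same *B. rapa* gene, in 4 panels named by pathway; each point is 1 library, colours give the group, and an asterisk marks a member. In the 3 pairs the D + F points lie above the D points in both copies, and in the linoleic acid panel both members stand above the other 6 genes in CK and among them in D + F and D.

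In 2 places the identifiers of members followed directly on each other. BnaC06g28960D had 0.664, 1.05 and 0.926 FPKM in D + F, 0.256, 0 and 0.130 FPKM in D, and 14.8, 29.5 and 41.7 FPKM in CK, and BnaC06g28970D had 0.573, 1.25 and 1.14 FPKM in D + F, 0, 0 and 0.280 FPKM in D, and 5.26, 20.4 and 32.5 FPKM in CK. Their libraries had the same order in CK, and both had 0.5 FPKM or more in every D + F library. These values rested on 5, 9 and 7 reads in BnaC06g28960D and 2, 5 and 4 in BnaC06g28970D. BnaC09g17940D had 0, 0 and 0.197 FPKM in D + F, no read in D, and 11.1, 8.17 and 7.70 FPKM in CK, and BnaC09g17950D had no read in D + F or D and 10.1, 6.34 and 5.35 FPKM in CK. The adjacent genes did not fall this far. BnaC06g28950D had 3.01, 2.09 and 2.86 FPKM in D + F, 1.78, 2.52 and 2.46 FPKM in D, and 5.14, 5.12 and 4.43 FPKM in CK. Limma's test also called this gene lower in D vs. CK (change -0.86, adjusted p = 0.00721), with a D mean of 46.0% of CK. BnaC09g17960D had 2.2, 2.56 and 3.55 FPKM in D + F, 2.08, 2.22 and 2.82 FPKM in D, and 2.51, 1.96 and 3.00 FPKM in CK. On the other flanks, the D mean was 60.9% of CK in BnaC09g17930D and 110.7% in BnaC06g28980D, whose CK mean was only 0.548 FPKM. All 4 neighbouring members are short, from 153 to 444 bases, and whether each pair is 1 transcript was not tested.

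The members were set beside genes that drought lowered less. Over the 60 genes with the same CK threshold and a highest D value of at least 0.5 and under 1 FPKM, the D + F mean had a median of 13.6% of CK, and over the 6387 genes called lower in D with a highest D value of at least 1 FPKM it was 63.6%, against 4.24% over the members. On the log2(FPKM + 1) scale, D + F lay at a median of 14.6% of the way from D to CK in the members, 25.6% in the 60 genes and 37.9% in the 6387 genes. None of the 69 members, 7 of the 60 genes and 30.8% of the 6387 genes were at least 50% of the way. The order of the medians was the same in each D + F library, with 13.6%, 9.05% and 16.1% for the members, 26.3%, 23.8% and 27.5% for the 60 genes, and 33.3%, 37.0% and 44.1% for the 6387 genes. Most members lay under 1 FPKM in both drought groups, where adding 1 compresses changes, so this scale understates their rise. With 1 added, their median change was 0.61 in D + F vs. D and -3.54 in D vs. CK. With 0.1 added instead, these were 1.69 and -6.15. The other sets were not measured that way, so the gap between the sets on this scale is uncertain. The sets were cut from the D values themselves, and the figures describe them without a test.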

How the data were processed

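The authors deposited FPKM values for 104592 genes in each of 9 leaf libraries. According to the study's methods, filtered read pairs were mapped by TopHat (2.0.12), which used Bowtie (2.2.3), against a *B. napus* genome, and HTSeq (0.6.1) counted them per gene. The submitters' processing notes name Bowtie (0.12.2) and a mouse genome build instead; the study's account was followed. Whole reads, coding lengths and library totals were solved from the digits of the FPKM values, and 99.998% of the 589231 values above 0 were whole within 0.01 reads.

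Genes above 1 FPKM in at least 3 of the 9 libraries (50626, all members among them through their CK values) were tested on log2(FPKM + 1) with limma 3.58.1 in R 4.3.3, with a mean-variance trend, on the 6 libraries of each comparison, and p-values were Benjamini-Hochberg adjusted over all of them. Fold changes on this scale understate changes of low genes. P-values set the difference between 2 group means against the spread between the 3 libraries of a group. Limma draws the spread of each gene towards that of all genes tested. The limma script was tested on simulated data. Only genes with many reads were changed there, in D vs. CK, so that test did not cover calls that rest on few reads. Tables were made with Python 3.11.15, numpy 2.4.6 and pandas 2.3.3, and figures with matplotlib 3.10.9.

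The members and lists were chosen with earlier results of these data known. Single genes are named by rule: members in the study's pathway and gene lists, the 8 highest in CK, the 8 highest in D + F, the 5 highest in CK among those under 0.5 FPKM in every D + F library, 2 on each side of each threshold, the members called in D + F vs. D, copies sharing a *B. rapa* gene, and members at most 5 gene models apart. Genes named outside it were chosen after their values were seen, namely members with no read, BnaC06g32880D and the neighbours of adjacent members. Subgenome and chromosome were read from the identifier. Alternatives were another pseudocount, other filters, scalings, fits, thresholds and leaving out each library. No sequences are printed, as the tables used here hold none for these identifiers.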

Additional observations from a re-analysis of the deposited data

How the results depend on the processing

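The number of members followed the thresholds: 26 with at least 10 FPKM in CK, 148 with at least 2.5 FPKM, 32 under 0.25 FPKM in D, 129 under 1 FPKM, 64 after median-of-ratios scaling, and 75 to 111 with 1 CK or D library left out of the rule. The share on the A subgenome stayed within its binomial interval in all 11 of these alternatives. Members detected again numbered 10 at 1 FPKM, 40 when 2 of 3 D + F libraries sufficed, 38 with at least 4 reads per library, and 27 to 32 without 1 D + F library. The median D + F level stayed between 3.97% and 4.71% of CK. In D + F vs. D, 0 of 69 members were called without a filter on low values (lowest adjusted p = 0.0503, 37 with an unadjusted p under 0.05) and 3 with a mean FPKM of at least 5, which tested 33 members, while voom on the solved reads called 6. Without 1 library, 0 to 6 were called. With the mean of at least 5 FPKM, all 33 members tested were called lower in both comparisons with CK, and the other alternatives called 61 to 69 members (D + F vs. CK) or 69 members (D vs. CK). In no alternative was a member called in the opposite direction.

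The numbers were not taken to pair the libraries, since the same-number correlations were not all over 0.1: -0.191, -0.0964 and 0.221 between D + F and D, -0.291, 0.0580 and -0.0208 between D and CK, and 0.306, 0.0532 and 0.266 between D + F and CK. In the last comparison every library correlated best with its own number, a hint from the data that the labels do not state. With the replicate number as a block, 0 members were called in D + F vs. D (33 with an unadjusted p under 0.05), 68 were lower in the comparison of D + F with CK, and 69 in that of D with CK. On 1 kilobase, 3 reads amount to 0.115 to 0.137 FPKM, and differences among members at this level were not detectable at this depth.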

Other observations

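The mirror image of the rule, at least 5 FPKM in every D library and under 0.5 FPKM in every CK library, was met by 86 genes. Their D + F mean had a median of 48.3% of the D mean, and on the log2(FPKM + 1) scale D + F lay 24.4% of the way from D to CK. The 3 D + F libraries differed widely in these genes, at 50.7%, 13% and 20.1% of the way in D + F 1, 2 and 3, whereas the members described above lay at 13.6%, 9.05% and 16.1%. The limit of this scale for values under 1 FPKM applies here as well. On this scale, D + F 1 was the farthest from D in the genes switched on, and D + F 3 in the genes switched off. As a percent of CK, the medians of the genes switched off were nearly equal in D + F 1 (4.92%) and D + F 3 (4.89%).

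Members BnaAnng10230D on the A and BnaCnng41950D on the C subgenome, singled out after their values were seen, have the same coding length of 1122 bases and the same order of CK libraries, with 5.21, 12.6 and 28.2 FPKM in the A gene and 6.87, 17.6 and 44.9 FPKM in the C gene. In D + F they differed in 1 library, with 1.01 FPKM in the A gene and 5.29 FPKM in the C gene in D + F 3. The sources used here do not pair them. Equal coding length and the same order of CK libraries were also found in other members across A and C. These were BnaA09g49730D with BnaC05g04720D at 300 bases, and BnaA04g21960D with BnaC04g56560D at 615 bases.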
